A study of Mus musculus with 7 samples.

Results

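Notch receptors, their ligands and the repressor genes they switch on were examined in cancer-associated fibroblasts (CAFs) from mouse pancreatic tumors. 10 genes were looked up by symbol: the receptors Notch1, Notch2 and Notch3, the ligands Jag1, Jag2 and Dll1, and the targets Hes1, Hey1, Hey2 and Heyl. The count table lists 12771 genes and holds 8 of the 10. Jag2 and Hey2 were not analysed here. The CAFs came from tumors in the pancreas of male C57BL/6 mice (C57BL/6 J in the study's methods). KPC cells, a line of mouse pancreatic cancer, were injected into the pancreas at an age of 8 weeks, and the tumors were taken 2 to 3 weeks later. A lentivirus had given these cells a short hairpin RNA that silences Brca2 (the shBrca2 group) or targets nothing (the shControl group). The hairpins were in the cancer cells, and the fibroblasts were those of the host in both groups. Sorting kept live podoplanin-positive cells without CD45, CD31 or EpCAM, and 3' end libraries were made from 3 shControl mice (replicates 1, 2 and 4) and 4 shBrca2 mice (replicates 1 to 4).

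Notch is a receptor system that works between touching cells. A ligand of the Jagged or Delta-like family on a neighboring cell binds the receptor, ADAM proteases and then γ-secretase cut it, and the freed intracellular part joins the DNA-binding protein RBPJ and the Mastermind coactivators in the nucleus. The best known direct targets are the Hes and Hey genes, which encode basic helix-loop-helix repressors. In adult tissue Notch3, Hey1, Heyl and Jag1 are known from mural cells, the pericytes and smooth muscle cells around vessels, among other cells. Hes1 is expressed more widely and also responds to signals other than Notch.

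Total counts ran from 1898679 to 5990579 per library. Values below are normalized counts, the counts divided by a size factor per library, and they compare libraries for a single gene, not genes with each other. Within a group they are given in the order of the replicate numbers. A gene was called when its DESeq2 adjusted p was under 0.1, its log2 fold change was over 0.5 in size and its mean normalized count was over 5. All 10 fibroblast markers looked up were listed. Of these, Pdgfra had 549 to 688 normalized counts over the 7 libraries, and 2 of the 10, Dcn and Lum, were called lower in shBrca2 CAFs.

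The target Hey1 and the receptor Notch3 were higher in CAFs from shBrca2 tumors, by 2.6-fold and 2.18-fold. No other gene among the 8 was called, and none was called lower. 2 of 8 genes were therefore called, where 9.04% of all genes tested were called in either direction, 3.77% higher and 5.27% lower. Of the 8 log2 fold changes 7 were above 0, with a median of 0.49, and over all genes tested the median was 0.01. The targets Hes1 and Heyl, the receptors Notch1 and Notch2 and both listed ligands did not pass.

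**Figure D1:**
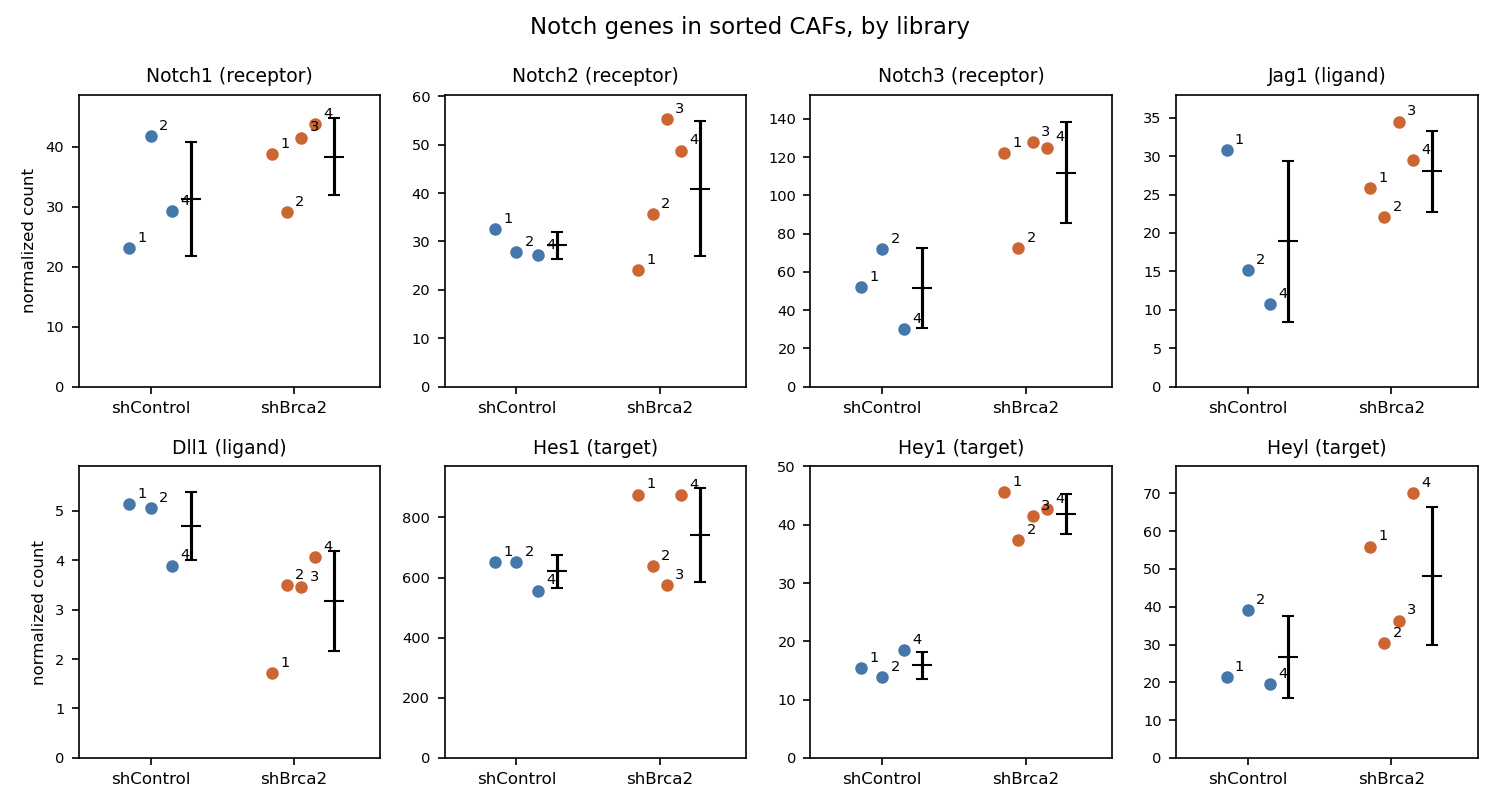
Normalized count of each of the 8 Notch genes (vertical axes, from 0, a different scale in each panel) in the 3 shControl and 4 shBrca2 libraries, with the replicate number beside each point. Black bars give the mean and SD of each group. The Hey1 points are well apart, from 13.9 to 18.5 against 37.3 to 45.6, while the highest shControl and the lowest shBrca2 value of Notch3 nearly touch.

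RefSeq promoter sequences on GRCm38.p6, the assembly of the mm10 build named for these counts, were at hand for 5 of the 8 genes: Notch1, Notch2, Notch3, Jag1 and Dll1. The 250 bases before the start site of the called receptor are shown beside those of the other 2 receptors, to compare the paralogs. For Notch3 that site lies just inside the gene span given below, which ends at 32166896. Capitals mark GGGCGG or its reverse complement CCGCCC, the GC box that Sp1 factors bind, and each line reads 5′ to 3′ on the strand of the gene. The regions are chr17:32166891-32167140 on the minus strand for Notch3, chr2:26503823-26504072 on the minus strand for Notch1 and chr3:98013288-98013537 on the plus strand for Notch2.
Notch3: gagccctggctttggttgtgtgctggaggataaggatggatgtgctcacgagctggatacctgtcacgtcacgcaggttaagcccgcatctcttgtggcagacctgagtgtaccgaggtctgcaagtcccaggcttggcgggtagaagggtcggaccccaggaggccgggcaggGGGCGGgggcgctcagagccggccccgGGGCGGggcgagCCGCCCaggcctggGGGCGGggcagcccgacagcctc
Notch1: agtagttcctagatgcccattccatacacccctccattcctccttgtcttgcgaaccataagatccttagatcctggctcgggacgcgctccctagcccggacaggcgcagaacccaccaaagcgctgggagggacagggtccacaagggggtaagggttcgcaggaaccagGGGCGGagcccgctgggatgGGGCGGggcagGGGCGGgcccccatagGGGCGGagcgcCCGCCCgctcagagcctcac
Notch2: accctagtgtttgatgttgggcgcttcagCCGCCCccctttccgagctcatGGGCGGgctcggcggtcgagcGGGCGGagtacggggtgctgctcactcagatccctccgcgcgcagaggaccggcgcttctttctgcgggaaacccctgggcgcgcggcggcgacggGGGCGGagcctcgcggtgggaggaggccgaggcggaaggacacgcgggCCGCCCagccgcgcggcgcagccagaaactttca

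The Notch3 stretch held 4 GC boxes and those of Notch1 and Notch2 held 5 each, on both strands, while 32.7% of 32851 promoters of this length in the table held at least 1. G and C made up 68.8%, 66% and 72% of the Notch3, Notch1 and Notch2 stretches. The letters TGGGAA or TTCCCA, the core that RBPJ recognizes, were in none of the 3, and 21.6% of all these promoters held them. CACGTG, an E-box of the kind that Hey proteins bind, was in none of the 3 either, against 6.02% of all. These counts say only which letters stand in this window.

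Among the receptors, Notch3, the form known from vessel walls, was the one called. Notch3 (chromosome 17, 32120820 to 32166896) measured 52.1, 72.1 and 30.2 normalized counts across the controls, replicates 1, 2 and 4. Among shBrca2 replicates 1 to 4 the values were 122, 72.3, 128 and 125. Every shBrca2 library was thus above every control, but shBrca2 replicate 2 exceeded shControl replicate 2 by little, at 72.28 against 72.11, and the other 3 shBrca2 libraries lay close together. Notch3 averaged 51.5 ± 21 across the controls and 112 ± 26.5 across the shBrca2 mice (SD, n = 3 and n = 4), and its log2 fold change of 1.12 ± 0.32 (SE) passed, with adjusted p = 0.014 by DESeq2. Raw counts were 31 to 142 per library. The call rested in part on shControl replicate 4, the library with the least Notch3. Without it the value was 0.85 (DESeq2 adjusted p = 0.14). With the replicate number added to the model as a block, Notch3 was at 1.08 and did not pass either (DESeq2 adjusted p = 0.18). In the annotation 8.92% of the Notch3 exon bases are shared with Gm17276 on the opposite strand, and whether counting used strand is not stated.

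Notch1 and Notch2 were not called. Notch1 (chromosome 2, 26457902 to 26503822), a receptor with broad roles in cell fate, measured 23.1, 41.7 and 29.2 normalized counts across the controls, against 38.7, 29.1, 41.5 and 43.7 across the shBrca2 libraries. The groups overlapped, since shControl replicate 2 was within the shBrca2 range and shBrca2 replicate 2 within that of the controls. Its log2 fold change was 0.29, with a 95% interval of -0.35 to 0.93 (DESeq2 adjusted p = 0.74). Notch2 (chromosome 3, 98013538 to 98150367) measured 32.5, 27.8 and 27.2 normalized counts across the controls, against 24.1, 35.6, 55.3 and 48.8 across the shBrca2 libraries. The lowest of the 7 libraries was shBrca2 replicate 1, and replicates 3 and 4 of that group were above all others. The log2 fold change of Notch2 was 0.45, with an interval of -0.23 to 1.13 (DESeq2 adjusted p = 0.57). Both intervals reach past 0.5, so differences of the size required for a call lie within them. Notch1 shares 14% of its exon bases with genes on the opposite strand, and Notch2 shares 4.8% with Gm42820 on the same strand.

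After the values were seen, Notch3 was set against its paralogs with ratios within a library, which need no size factor. The ratios reuse the counts behind the Notch3 call, so they are not separate support for it. The log2 ratio of Notch1 to Notch3 counts was -0.65 ± 0.56 for the controls and -1.50 ± 0.15 for the shBrca2 libraries (SD, n = 3 and n = 4). All 4 shBrca2 ratios were below all 3 control ratios, and the difference of -0.85 had the smallest p the 35 splits of 7 libraries allow (two-sided exact permutation test, p = 0.057, adjusted over 6 ratios 0.17). A p under 0.05 could not be reached with these groups. Notch2 against Notch3 differed by -0.74 (two-sided exact permutation test, p = 0.17, adjusted 0.26) and the ratios overlapped. Notch1 against Notch2 differed by -0.10 (exact permutation p = 0.8), and the sign of that value turned without shControl replicate 2 (0.15) and without shBrca2 replicate 3 (0.02).

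Neither listed ligand was called. Jag1 (chromosome 2, 137081451 to 137116520), a membrane-bound ligand, measured 30.8, 15.2 and 10.7 normalized counts across the controls, against 25.8, 22.1, 34.5 and 29.5 across the shBrca2 libraries. 2 controls lay under all shBrca2 libraries, and shControl replicate 1 was the second highest of the 7. The log2 fold change was 0.52, with an interval of -0.30 to 1.34 (DESeq2 adjusted p = 0.59). It was 1.10 without shControl replicate 1 and did not pass there either (DESeq2 adjusted p = 0.28). Dll1 (chromosome 17, 15367354 to 15376932), the Delta-like ligand, had only 2 to 6 raw counts in any library. It averaged 4.69 ± 0.694 across the controls and 3.18 ± 1.01 across the shBrca2 mice (SD, n = 3 and n = 4), under the minimum mean of 5 that a call requires, and 34.8% of its exon bases lie in other genes. No statement on Dll1 was possible at this depth.

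Of the targets, Hey1 differed most. Hey1 (chromosome 3, 8663359 to 8667038) encodes a Hey repressor found in vessel walls and in mesenchyme. Normalized counts of 15.4, 13.9 and 18.5 were measured across the controls, against 45.6, 37.3, 41.5 and 42.7 across the shBrca2 libraries. No control came near the shBrca2 range, and both groups were tight. Means were 15.9 ± 2.33 (SD, n = 3) and 41.8 ± 3.45 (SD, n = 4), and the log2 fold change of 1.38 ± 0.34 (SE) passed, with adjusted p = 0.0016 by DESeq2. Leaving out each library in turn gave log2 fold changes of 1.30 to 1.50 and DESeq2 adjusted p of 0.0079 to 0.047, so the call did not rest on any single library. The call was lost when the replicate number was added to the model as a block (1.40, DESeq2 adjusted p = 0.13). The raw counts were low, 11 to 19 in the controls and 24 to 64 in the shBrca2 libraries. Hey1 shares 5.65% of its exon bases with Gm64520 on the opposite strand. Over all listed genes, every shBrca2 library was above every control for 7.78% and below every control for 9.29%. Among the 8 Notch genes Hey1 and Notch3 were apart upward and none was apart downward.

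Heyl, a Hey relative known from mural cells, had a higher mean in shBrca2 CAFs but was not called. Heyl (chromosome 4, 123233556 to 123249870) measured 21.4, 39.2 and 19.5 normalized counts across the controls, against 55.9, 30.3, 36.3 and 70.1 across the shBrca2 libraries. shControl replicate 2 was above shBrca2 replicates 2 and 3, so the groups overlapped. The log2 fold change was 0.87 ± 0.39 (SE), with an unadjusted p of 0.027 and adjusted p = 0.2 by DESeq2. Without shControl replicate 2 it was 1.24 and passed (DESeq2 adjusted p = 0.06), with adjusted p from 0.06 to 0.61 over all alternative fits.

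Hes1, the widely expressed target, had the most counts behind it, 333 to 1096 per library. Hes1 (chromosome 16, 30065357 to 30067796) measured 651, 652 and 556 normalized counts across the controls, against 876, 639, 575 and 873 across the shBrca2 libraries. shBrca2 replicates 1 and 4 were above all controls, and replicates 2 and 3 lay within the control range. The log2 fold change was 0.26 ± 0.20 (SE), with an interval of -0.13 to 0.65 (DESeq2 adjusted p = 0.56). The log2 fold change of Hey1, 1.38, lies outside this interval, but it has an error of its own, with an interval of 0.72 to 2.04. Hey1 also had the largest value of the 8 genes.

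**Figure D2:**
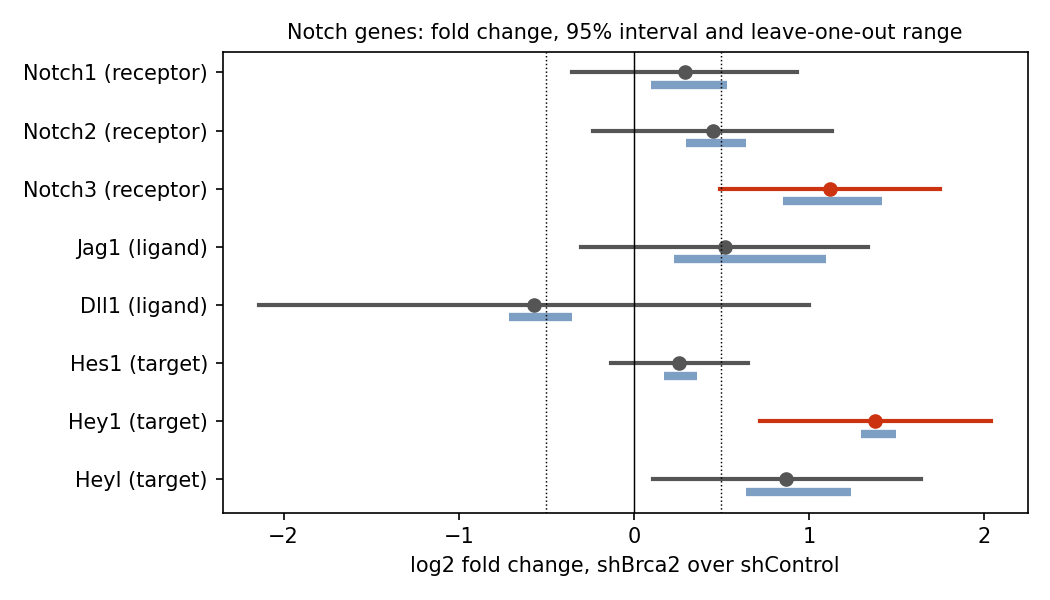
Log2 fold change of shBrca2 over shControl (horizontal axis) for the 8 Notch genes, with the 95% interval from the standard error as a thin line and the range over the 7 fits that leave out 1 library as a blue bar. Red marks the called genes, Notch3 at 1.12 and Hey1 at 1.38, and dotted lines mark the log2 fold change of 0.5 in either direction. The interval of Dll1, which begins at -2.14, is the widest.

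The targets were compared by ratios in the same way, again after the values were seen and with the counts behind the Hey1 call. The log2 ratio of Hes1 to Hey1 counts was 5.33, 5.43 and 4.84 in the controls and 4.24, 4.08, 3.74 and 4.32 in shBrca2 CAFs. Every shBrca2 ratio was below every control ratio. The means of 5.20 ± 0.31 (SD, n = 3) and 4.09 ± 0.26 (SD, n = 4) differed by -1.10, again with the smallest p possible (two-sided exact permutation test, p = 0.057, adjusted 0.17). Hes1 against Heyl differed by -0.59 (exact permutation p = 0.11, adjusted 0.23) and Hey1 against Heyl by 0.52 (exact permutation p = 0.29, adjusted 0.34). Both of these overlapped between the groups.

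The machinery around receptors and ligands was covered by a list of 67 further Notch pathway genes, of which 53 were listed. 1 was called higher and 1 lower, against 3.77% and 5.27% of all genes tested. The median log2 fold change of the 53 was -0.12, against 0.01 for all genes tested. 33 of the 53 were below 0 and 20 above it, where 6276 of all genes tested were below 0 and 6492 above. In 2 of the 53 every shBrca2 library was above every control, and in 7 below, against 7.78% and 9.29% of all listed genes. Bhlhe40, a helix-loop-helix repressor related to the Hes and Hey proteins, rose by a log2 fold change of 0.61, with adjusted p = 0.012 by DESeq2 and means of 652 ± 56.5 and 996 ± 161 (SD, n = 3 and n = 4). It measured 632, 608 and 716 normalized counts across the controls, against 976, 1181, 793 and 1035 across the shBrca2 libraries, with no overlap. Without shControl replicate 1 it did not pass (log2 fold change 0.59, DESeq2 adjusted p = 0.12). Tle2, a Groucho corepressor that Hes and Hey proteins recruit, fell by 0.64 on the log2 scale (DESeq2 adjusted p = 0.082), with means of 83.8 ± 6.48 and 54.4 ± 8.08 (SD, n = 3 and n = 4). All shBrca2 libraries were below all controls, but the DESeq2 adjusted p of Tle2 was 0.12 to 0.45 once any single library was left out.

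Receptor processing and the nuclear complex showed no call. The proteases that make the first cut, Adam10 and Adam17, had log2 fold changes of 0.38 and -0.14, and the γ-secretase subunit Ncstn had -0.13, with DESeq2 adjusted p of 0.51 to 0.77. None of the 8 listed cleavage genes was called. Rbpj, which carries the signal to DNA, averaged 65.6 ± 23.5 in the controls and 57.8 ± 18.5 in the shBrca2 mice (SD, n = 3 and n = 4). Rbpj was at -0.17 on the log2 scale (DESeq2 adjusted p = 0.88), with an interval of -0.83 to 0.49, and 0.11 without shControl replicate 1. Maml1, a Mastermind coactivator, was at -0.36 (DESeq2 adjusted p = 0.39).

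Fringe enzymes add sugars to the receptors and set which ligand family they answer to. Lfng measured 66.6, 63.3 and 53.5 normalized counts across the controls, against 38.7, 49.5, 38 and 31.5 across the shBrca2 libraries. The groups did not overlap, yet Lfng did not pass (-0.61 ± 0.27, SE, on the log2 scale, DESeq2 adjusted p = 0.19). Rfng was at -0.28 (DESeq2 adjusted p = 0.53). Notch4, the receptor best known from endothelium, was at -0.13 (DESeq2 adjusted p = 0.92). That sign was not stable, with 0.01 without shControl replicate 2 and 0.01 without shBrca2 replicate 1. Nrarp, a target that limits Notch signaling, had 2 to 14 raw counts per library and was at 1.04 ± 0.72 (SE) on the log2 scale (DESeq2 adjusted p = 0.5). Numbl, named here after its values were seen, had an adjusted p of 0.041 by DESeq2 but a log2 fold change of -0.43, short of the required size. Dll4 and Mfng were not analysed here.

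**Figure D3:**
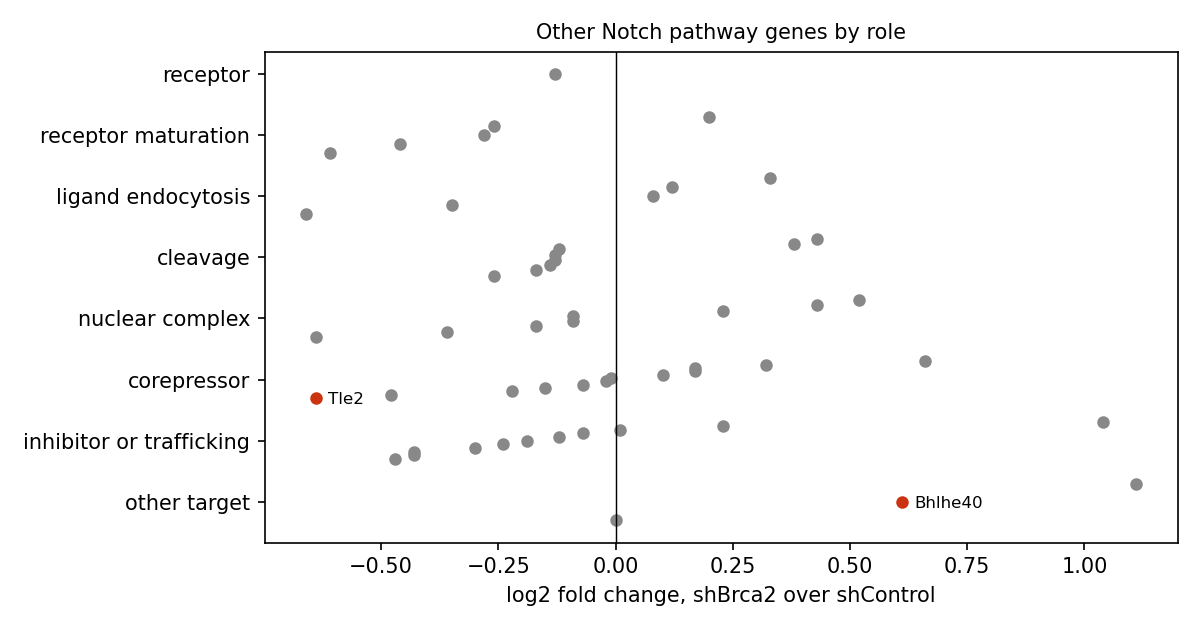
Log2 fold change of shBrca2 over shControl (horizontal axis) for the 53 other Notch pathway genes, each a point, in rows by role. Red points are the called genes, Tle2 at -0.64 and Bhlhe40 at 0.61; grey points did not pass, among them points further from 0 such as Nrarp at 1.04.

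Since Notch3, Hey1 and Heyl are known from mural cells, markers of those and other cells were set beside them. 10 of 11 pericyte markers were listed, and their summed level was 1323 to 2213 normalized counts in the controls and 1845 to 2449 in shBrca2 CAFs, with overlap. Des and Ndufa4l2 weighed most in the shBrca2 sums, so the sum follows few genes. Of the 10 log2 fold changes 6 were above 0 and 4 below, with a median of 0.37. Des, Ndufa4l2 and Cox4i2 were called higher, at log2 fold changes of 0.86, 1.35 and 1.84, and Vtn was called lower at -1.80. The other markers of this list were not called. Cspg4 and Kcnj8 were at 0.25 and -0.13, and Rgs5, a defining pericyte gene, had 1 to 8 raw counts in every library. Leaving out Vtn, a choice made after its values were seen, gave sums of 862 to 1766 in the controls and 1741 to 2297 in shBrca2 CAFs, which still overlapped. With or without Vtn, shControl replicate 2 had the highest sum of the controls, together with their highest Notch3 and Heyl and lowest Hey1. shBrca2 replicate 2 had the highest sum with Vtn, 2449, but not without it. In sorted bulk RNA, more cells of a type and more transcript per cell cannot be told apart, and the part of mural cells in these results was not tested.

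**Figure D4:**
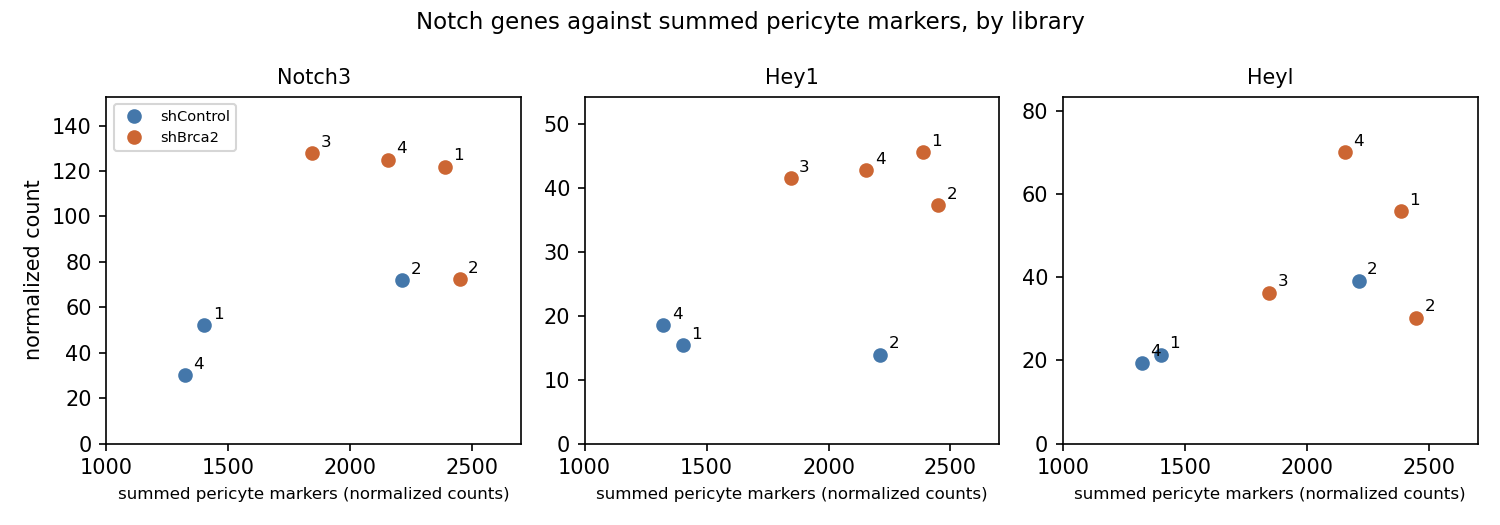
Normalized counts of Notch3, Hey1 and Heyl (vertical axes, from 0) against the summed normalized counts of the 10 listed pericyte markers (horizontal axis, not drawn from 0), 1 point per library with its replicate number. The marker sums of the groups overlap, at 1323 to 2213 in shControl and 1845 to 2449 in shBrca2, and include Vtn, which was called lower.

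Summed epithelial and immune markers were higher in shBrca2 CAFs without overlap, and summed fibroblast markers were lower without overlap. The sums of the other lists below overlapped. Of 14 endothelial markers 9 were listed, with sums of 191 to 324 in shControl and 269 to 367 in shBrca2, which overlapped. Their log2 fold changes were above 0 for 5 of the 9 and below 0 for 4, with a median of 0.51. Flt1 was the one endothelial marker called, at 1.23 on the log2 scale. Among the others above 0, Esam and Egfl7 were at 0.81 and 0.77 and did not pass. The 4 below 0 were Pecam1 at -3.60, Tek at -1.55, Vwf at -1.11 and Plvap at -0.59. Of these 4, Pecam1 had adjusted p = 0.031 by DESeq2 but was not called, its mean count being too low. Pecam1, the gene of the CD31 antigen used to exclude endothelium, had 0 to 14 raw counts, and 0 in shBrca2 replicates 3 and 4. Epithelial markers summed to 414 to 1166 in shControl and 1472 to 2083 in shBrca2, which did not overlap. Of 12 epithelial markers 8 were listed, Epcam not among them, and 5 were called higher. All 8 epithelial log2 fold changes were above 0, with a median of 1.17. Immune markers summed to 285 to 318 and 404 to 449, with 8 of 12 listed and Csf1r and C1qa called higher. The immune log2 fold changes were above 0 for 4 of the 8 and below 0 for 4, with a median of 0.13. Csf1r, at 86.6 to 149 normalized counts in shControl and 226 to 276 in shBrca2, weighed most in the shBrca2 sums. Mesothelial sums overlapped, at 912 to 3001 and 2076 to 2717, with 8 of 9 listed and only Cdh3 called. Fibroblast markers summed to 141776 to 160327 in shControl and 114500 to 136185 in shBrca2. Of the 10, 9 log2 fold changes were below 0, with a median of -0.13. Lum, Dcn and Col3a1 were at -1.18, -0.77 and -0.44, while Pdgfra and Pdgfrb were at 0.01 and -0.06. Sums of 12 dissociation response genes, a program that can also raise Hes1, overlapped at 64887 to 86972 and 57209 to 79753, and 1 of them, Socs3, was called, lower. The part of these cells in the Hey1 and Notch3 values was not tested.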

How the data were processed

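The authors deposited raw counts per gene symbol, 1 column per library, as whole numbers that were not normalized. MARS-seq libraries, which read 3' ends, were sequenced on a NextSeq instrument. The submitters' processing notes name bcl2fastq, cutadapt, STAR 2.4.2a, HTSeq, DESeq2 and the mm10 build. Whether strand was used, how molecular barcodes were handled and which annotation was counted are not given in the sources used here, so counts may include PCR copies, and counting error is a lower limit on the error. Counts per gene from 3' ends do not scale with transcript length.

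DESeq2 1.42.0 (R 4.3.3) tested the group by likelihood ratio, the test that the study's methods name, with its default size factors. All 12771 genes and 7 libraries were used with no covariate, on which those methods say nothing for the CAFs. P-values were adjusted by Benjamini-Hochberg over all genes. 3 genes received no p. Fold changes are shBrca2 over shControl and not shrunken, and 95% intervals use the standard error. Replicates are separate mice. No replicate pair agreed within sampling noise (lowest mean chi-square per gene 3.35). Alternatives were edgeR 4.0.16's quasi-likelihood test with TMM, the Wald test, TMM factors, both filter settings, a replicate block and leaving out each library. Ratios used log2((count + 1) / (count + 1)) and scipy 1.17.1, and were added after the data were seen. The code was tested on simulated data. The genes and lists were chosen with earlier results of these data known. All 10 genes were to be named, with called pathway genes and a fixed set of pathway genes, of which 1 is not reported here. Gene positions and promoters are RefSeq GRCm38.p6; exon overlaps are from GENCODE vM39 on GRCm39, not the build of the counts.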

Additional observations from a re-analysis of the deposited data

Results flagged for a closer look

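In the shBrca2 group, Notch3 had a library far from the others: replicate 2, at 72.3 normalized counts against 122 to 128, with a gap that made up 0.899 of the group's range, above the critical value of Dixon's test. Without that library the log2 fold change of Notch3 was 1.29 (DESeq2 adjusted p = 0.0016). Rfng was flagged for the same reason: shBrca2 replicate 4 had 161 normalized counts and the other 3 had 192 to 193, a gap of 0.967 of the range. 20 genes were examined in this way, and chance flags about 1 in 20.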

How the results depend on the processing

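The call of Hey1 was lost in 1 of 13 alternative fits and that of Notch3 in 2 of 13. All 8 genes kept their direction in these fits, except that 2 of them gave no value for Dll1. Deviations of same-numbered libraries correlated at -0.09, -0.13 and -0.14, against -0.15 to 0.26 for the other pairs. They showed no sign of pairing, but so few libraries cannot show that same-numbered samples shared no batch. With the replicate number as a block, 211 genes were called higher and 280 lower, in place of 481 and 673. In that fit 0 Notch genes were called and 0 pathway genes lower. On the log2 scale Hey1 was then at 1.40 (DESeq2 adjusted p = 0.13), Notch3 at 1.08 (0.18) and Tle2 at -0.67 (0.52). shBrca2 replicate 3 has no partner in that fit.

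Leaving out single libraries gave 261 to 610 genes called higher and 354 to 695 lower, 1 to 3 of the 8 Notch genes, 1 to 3 pathway genes higher (3 without shControl replicate 2, 2 without shBrca2 replicate 3) and 0 to 1 lower. Over these fits the log2 fold change ran from 0.85 to 1.42 for Notch3 (lost without shControl replicate 4), from 0.64 to 1.24 for Heyl (passed without shControl replicate 2), from -0.40 to 0.11 for Rbpj and from -0.32 to 0.01 for Notch4. The Notch1 to Notch2 ratio difference ran from -0.37 to 0.15. With genes required to have a mean of 20 before testing, 2 pathway genes were called higher. Raw counts of 11 to 64 limit the precision for Hey1, Jag1, Notch1 and Notch2. Dll1 and Nrarp gave no value in the edgeR fit and in that with the mean of 20, since both filters removed them.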
